A study of Mus musculus with 8 samples.

Results

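The signalling line that carries IL-10 into the macrophage nucleus was followed through 10 genes, from the receptor chains *Il10ra* and *Il10rb* and the kinases *Jak1* and *Tyk2* to *Stat3*, its feedback target *Socs3* and the nuclear repressors *Bcl3*, *Nfil3*, *Etv3* and *Sbno2*. The genes were chosen by their place in the pathway, with earlier results of these data known. Each was read from the brightest of the probe sets that the array annotation gives to that gene alone. This took 10 of 18183 genes with such a probe set, and 27 of 45101 probe sets belonged to the 10 genes, so that 17 further probe sets served as a check. Bone marrow-derived macrophages (BMDM) were grown from C57Bl/6 donors, 2 knockout for miR-155 (miR-155-/-) and 2 wild type (WT), with marrow kept in liquid nitrogen, thawed and differentiated for 7 days in medium with 15% L929 supernatant. There were 4 groups of 2 arrays, 1 array per donor. BMDM of both miR-155-/- donors received IL-10 at 20 ng/ml 5 min before LPS at 100 ng/ml, miR-155-/-(LPS + IL-10), or LPS alone, miR-155-/-(LPS), and BMDM of both WT donors were treated alike, WT(LPS + IL-10) and WT(LPS). LPS lasted 24 h in every group, and no group was left without LPS, so that the response of a gene to LPS itself was not measured. The labels give no age for these 4 animals, and the general methods for BMDM, which give female donors of 6 to 12 weeks, differ in sex from the labels of the knockout donors. By the labels the miR-155-/- donors were male and the WT donors female. *Xist*, the RNA of the inactive X chromosome, was at 1.87 to 3.59 on the 4 miR-155-/- arrays and at 8.66 to 11.32 on the 4 WT arrays over its 3 probe sets, which fits the labels, and genotype and sex cannot be told apart in any comparison of miR-155-/- with WT.

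IL-10 binds a receptor of a ligand-binding chain, encoded by *Il10ra*, and a chain shared with other cytokines, encoded by *Il10rb*. The kinases JAK1 and TYK2 sit on these chains and phosphorylate them and STAT3, which pairs, enters the nucleus and binds DNA. In macrophages most of the suppression of LPS-induced cytokine genes by IL-10 needs STAT3 and new protein synthesis, and several proteins made under STAT3 act as transcriptional repressors. miR-155 is a microRNA that macrophages make in response to LPS.

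The sequences below show the microRNA that the miR-155-/- donors lack, with its seed (bases 2 to 8) in capitals, and the STAT-type motif in front of 2 of the 10 genes, with the motif in capitals. The motif searched was TTCNNNGAA, which reads the same on both strands, in RefSeq windows (GRCm38.p6) that run from 250 bases before to 50 bases after each annotated start. Windows were at hand for 8 of the 10 genes, and the motif was in that of *Socs3* and in some of those of *Sbno2*. It was in 3 of the 10 windows of these genes and in 8.3% of 32851 windows of all genes (9.55% of 27025 genes). The microRNA lies at chr16:84714143-84714165 on the plus strand, and all 3 stretches at promoters are written on the minus strand, as the genes read. The *Socs3* stretch is chr11:117969502-117969530, with the motif starting 154 bases before the start. Those of *Sbno2* are chr10:80102710-80102738 and chr10:80101193-80101221, with the motif 26 and 24 bases before 2 of its alternative starts. A further *Sbno2* window, at chr10:80075390-80075689 and downstream of both, had no motif. The labels upstream and downstream below refer to the 2 starts with the motif.
mmu-miR-155-5p: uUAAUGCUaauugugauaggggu
Socs3: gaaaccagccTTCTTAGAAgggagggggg
Sbno2, upstream start: gccgcgccccTTCGCAGAAgcggaagtgc
Sbno2, downstream start: ccggctctgcTTCCCGGAAtgcctgtgag
A match is a description of these letters and no measurement of STAT3 on the DNA.

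Values are log2 intensities normalised by RMA, so that a difference of 1 is a 2-fold change, and limma tests over all 45014 probe sets tested gave the p-values, adjusted by the Benjamini-Hochberg method. A gene passed the test at an adjusted p under 0.05, and it was selected, after the rule in the study's methods, at an unadjusted p under 0.05 with a log2 fold change over 1 in size. All 8 arrays carried macrophage transcripts, with a median over 8 markers between 12.5 and 12.7, and array medians over all probe sets were 3.89 to 3.97. The arrays of WT donor 1 stood apart from the others. The median of 12 fibroblast and stromal markers was 10.35 and 10.39 in that donor, against 3.64 to 5.39 on the other 6 arrays, and the summed level of the list was 13.95 and 13.94, against 7.37 to 9.53. Results of the 10 genes that rest on WT arrays are therefore also given without WT donor 1. Of 7 neutrophil markers, *S100a8*, which macrophages also make, was at 10.82 to 12.99 on every array. *Mpo*, *Elane*, *Ngp* and *Cxcr2* were at 1.46 to 3.05, and the differences of *S100a9* between genotypes are given below. The summed level of the 7 was 12.43 and 12.60 in miR-155-/-(LPS + IL-10), against 10.91 and 11.07 in miR-155-/-(LPS). In WT it was 13.03 and 13.03 with IL-10, against 12.20 and 12.10 with LPS alone. The summed level of 5 dendritic cell markers, led by *Itgax*, was 6.00 to 6.24 on the 4 arrays with IL-10 and 6.77 to 7.47 on the 4 with LPS alone, with *Flt3*, *Xcr1* and *Ccr7* at 1.75 to 2.69. The summed levels of both lists therefore differed with IL-10, and their part in the results was not tested. The median log2 fold change with IL-10 over the 7 neutrophil markers was -0.05 in miR-155-/- and 0.11 in WT. Over the 5 dendritic cell markers it was -0.23 in miR-155-/- and -0.26 in WT. The summed level of 6 T, NK and B cell markers was 8.16 on both arrays of WT donor 2, against 5.88 to 6.44 on the other 6 arrays. Of the marker genes, *S100a8* passed the test with IL-10 in miR-155-/- (1.59), *S100a8* and *S100a9* were lower and *Lum* higher in miR-155-/-(LPS) than with LPS in WT (-1.17, -3.12 and 2.57), and *S100a9* was lower in miR-155-/- under LPS + IL-10 (-4.44, limma, adjusted p = 0.0187). *Lum* went against its list, as the median log2 fold change of the 12 fibroblast and stromal markers under LPS alone was -2.73. The high values of WT donor 1 enter that median. The primary transcript of miR-155, *Mir155hg*, lay between 1.70 and 4.02 on all 8 arrays and could not serve to check the genotype. As in any bulk sample, fewer cells of a type and less RNA per cell cannot be told apart.

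**Figure D1:**
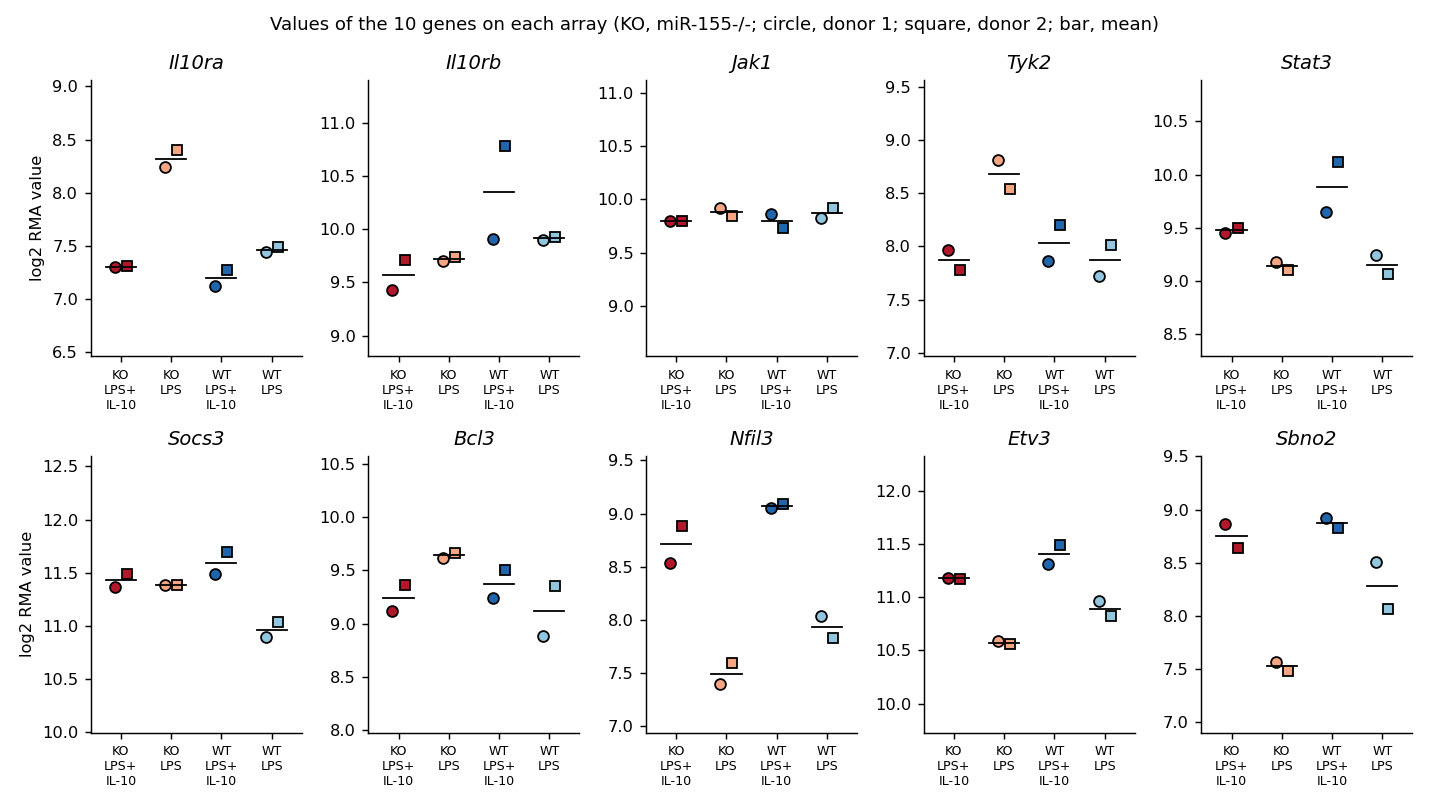
Log2 RMA value (y axis) of the brightest probe set of each of the 10 genes on each of the 8 arrays, by group (x axis), with a circle for donor 1, a square for donor 2 and a bar for the mean of 2 arrays; every panel spans the same log2 width. *Nfil3* and *Sbno2* lay highest in both LPS + IL-10 groups, *Il10ra* and *Tyk2* stood out in miR-155-/-(LPS), and *Jak1* stayed between 9.73 and 9.92.

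The first question was what added IL-10 did to this line in LPS-stimulated miR-155-/- BMDM. In the paper, a blocking antibody to the IL-10 receptor and loss of *Il10* each lowered Arg2 in BMDM given LPS. Groups with LPS alone therefore need not be free of IL-10 signals, and the comparison is one of added IL-10. In miR-155-/- BMDM the repressor genes *Nfil3*, *Sbno2* and *Etv3* were higher with IL-10 and the upstream genes *Il10ra* and *Tyk2* were lower. Of the 10 genes, 5 passed the test, 3 higher and 2 lower, against 2.68% of all probe sets (1.26% higher and 1.42% lower). The selection rule took 3 of the 10, *Il10ra*, *Nfil3* and *Sbno2*, against 2.51% of all probe sets. The 2 groups did not overlap for 8 of the 10 genes, 4 higher and 4 lower, against 47.9% of all probe sets (24.5% higher), and with 2 arrays a group such separation is common. The median log2 fold change of the 10 was -0.02, against 0.006 over all probe sets tested. The 5 calls fell to 3 (*Il10ra*, *Nfil3* and *Sbno2*) with the replicate number as a fixed block, which also joins miR-155-/- and WT donors of the same number, and to 4 with the donor as a fixed block, which *Etv3* failed. WT arrays enter this comparison only through the shared estimate of the spread, so that leaving out WT donor 1 cannot change its log2 fold changes.

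*Il10ra*, the chain that binds IL-10, was at 7.30 and 7.31 in miR-155-/-(LPS + IL-10), against 8.24 and 8.40 in miR-155-/-(LPS). The groups lay well apart, and each miR-155-/- donor was lower with IL-10, with differences of -0.94 and -1.09. The log2 fold change was -1.02 ± 0.11 (SE), a 2.02-fold difference (limma, adjusted p = 0.00774). A dim second probe set of the gene, with a mean of 3.77, passed as well at -0.70 (adjusted p = 0.0343), while the dimmest, with a mean of 2.88, was at -0.07 (adjusted p = 0.904). The call was lost when any 1 of the 4 miR-155-/- arrays was left out (adjusted p = 0.0642 to 0.0756), and it missed at 0.0524 with the mean over the 3 probe sets in place of the brightest. *Il10rb*, the shared chain, was at 9.43 and 9.71 in miR-155-/-(LPS + IL-10) and at 9.70 and 9.74 in miR-155-/-(LPS), groups that overlapped, with a log2 fold change of -0.15 (95% interval -0.72 to 0.42).

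*Tyk2*, the kinase on the shared chain, was at 7.97 and 7.78 in miR-155-/-(LPS + IL-10), against 8.81 and 8.54 in miR-155-/-(LPS). Both donors were lower with IL-10, and the log2 fold change was -0.80 ± 0.15 (SE; limma, adjusted p = 0.0478). This call was lost when any 1 of the 8 arrays was left out (adjusted p = 0.0656 to 0.279), without a donor block (0.126) and with the replicate number as a block (0.155). It was also lost with the mean over the probe sets of the gene (0.0811). The second *Tyk2* probe set, dim at a mean of 3.39, was at -0.22 (adjusted p = 0.568), with groups that overlapped. *Jak1*, the kinase on the ligand-binding chain, did not pass the test. It was at 9.79 and 9.79 in miR-155-/-(LPS + IL-10), against 9.92 and 9.85 in miR-155-/-(LPS), with a log2 fold change of -0.09 and a 95% interval of -0.35 to 0.17. Its other probe sets were at 0.11 and 0.23, on the other side of 0 from the brightest.

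*Stat3* was at 9.45 and 9.50 in miR-155-/-(LPS + IL-10), against 9.18 and 9.10 in miR-155-/-(LPS). The groups did not overlap, but the log2 fold change of 0.34 (95% interval -0.05 to 0.73) did not pass the test (limma, adjusted p = 0.364). *Socs3*, a STAT3 target whose protein restrains cytokine receptors of the IL-6 family, was at 11.37 and 11.49 in miR-155-/-(LPS + IL-10), against 11.39 and 11.39 in miR-155-/-(LPS). Its log2 fold change was 0.04 (95% interval -0.23 to 0.32) on the brightest probe set and 0.04 on the next. A further *Socs3* probe set gave 0.53 (adjusted p = 0.103), so that the probe sets of this gene differed in what they showed.

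Among the repressors, *Nfil3*, a basic leucine zipper factor that represses *Il12b* in macrophages, was at 8.54 and 8.89 in miR-155-/-(LPS + IL-10), against 7.39 and 7.60 in miR-155-/-(LPS). Both arrays with IL-10 were higher than both without it, and the log2 fold change was 1.21 ± 0.14 (SE), a 2.32-fold difference (limma, adjusted p = 0.00996). The call was lost without either miR-155-/-(LPS) array (adjusted p = 0.105 and 0.0632) or without miR-155-/-(LPS + IL-10) replicate 2 (0.0802), and held without any 1 of the other 5 arrays. The array has a single probe set for *Nfil3*.

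*Sbno2*, a helicase-family co-repressor of the IL-10 response in macrophages, was at 8.86 and 8.64 in miR-155-/-(LPS + IL-10), against 7.57 and 7.49 in miR-155-/-(LPS). The gap between the groups was far wider than the gap between donors, and the log2 fold change was 1.22 ± 0.15 (SE), a 2.34-fold difference (limma, adjusted p = 0.0119). Of its 3 other probe sets, all dim at means of 4.58 to 5.27, 1 passed at 1.02 (adjusted p = 0.0432), 1 was at 1.13 (adjusted p = 0.0860) and 1 was at -0.07 (adjusted p = 0.911). The call was lost when any 1 of the 4 miR-155-/- arrays was left out (adjusted p = 0.0689 to 0.110). *Etv3*, an ETS-family repressor, was at 11.18 and 11.17 in miR-155-/-(LPS + IL-10), against 10.59 and 10.56 in miR-155-/-(LPS). The donors nearly coincided, and the log2 fold change was 0.60 ± 0.12 (SE; limma, adjusted p = 0.0488). The 2 next brightest *Etv3* probe sets were at 0.81 (adjusted p = 0.0123) and 1.19 (adjusted p = 0.0729), and the dimmest at 0.05. On the brightest probe set the call was lost when any 1 of the 8 arrays was left out (adjusted p = 0.0589 to 0.251), without a donor block (0.10) and with a fixed block for the replicate number (0.128) or for the donor (0.0931). *Bcl3*, an atypical inhibitor-of-NF-κB protein that acts in the nucleus, lay on the other side of 0 from these 3, at 9.12 and 9.37 in miR-155-/-(LPS + IL-10) and 9.62 and 9.67 in miR-155-/-(LPS). Its log2 fold change of -0.40 did not pass the test (adjusted p = 0.272).

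In WT BMDM none of the 10 genes passed the test for IL-10, and 14 of 45014 probe sets did (0.0311%). At an unadjusted p under 0.05, 5 of the 10 were higher, *Stat3*, *Socs3*, *Nfil3*, *Etv3* and *Sbno2*, and none lower, against 4.69% higher and 4.58% lower of all probe sets. The selection rule took *Nfil3* alone, against 0.689% of all probe sets. WT(LPS + IL-10) and WT(LPS) did not overlap for 6 of the 10, 5 of them higher, against 32.8% of all probe sets (16.1% higher). The median log2 fold change of the 10 was 0.47, against a median of about 0 over all probe sets. With only probe sets of a mean log2 value of at least 6, or with an intensity trend and robust hyperparameters, 3 of the 10 passed (*Socs3*, *Nfil3* and *Etv3*). The share of all probe sets that passed under these settings was not counted, so that this count has no background.

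*Nfil3* was at 9.05 and 9.09 in WT(LPS + IL-10), against 8.04 and 7.83 in WT(LPS). Here too the groups lay apart, and the log2 fold change was 1.13 ± 0.14 (SE), a 2.19-fold difference (limma, adjusted p = 0.0770; 1.26 and 0.112 without WT donor 1). *Etv3* was at 11.32 and 11.49 in WT(LPS + IL-10), against 10.96 and 10.82 in WT(LPS), a log2 fold change of 0.51 ± 0.12 (adjusted p = 0.256; 0.67 without WT donor 1). *Sbno2* was at 8.92 and 8.82 in WT(LPS + IL-10), against 8.50 and 8.07 in WT(LPS), a log2 fold change of 0.59 ± 0.15 (adjusted p = 0.318; 0.76 without WT donor 1). For these 3 repressors both WT donors were higher with IL-10, and all 4 *Etv3* and all 4 *Sbno2* probe sets had a positive log2 fold change, between 0.17 and 1.06. *Bcl3* was at 9.24 and 9.51 in WT(LPS + IL-10) and 8.88 and 9.35 in WT(LPS), overlapping groups with a log2 fold change of 0.26 (95% interval -0.13 to 0.64).

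*Stat3* was at 9.65 and 10.12 in WT(LPS + IL-10), against 9.24 and 9.06 in WT(LPS). The 2 WT donors differed in size, with replicate 2 the highest *Stat3* value of all arrays, and the log2 fold change was 0.73 ± 0.17 (SE; limma, adjusted p = 0.252). Without WT donor 1 it was 1.06 (adjusted p = 0.109), and the other 3 *Stat3* probe sets were at 0.35 to 0.57. *Socs3* was at 11.49 and 11.69 in WT(LPS + IL-10), against 10.90 and 11.03 in WT(LPS), a log2 fold change of 0.62 ± 0.12 (adjusted p = 0.168; 0.66 without WT donor 1). Its other probe sets were at 0.85 and 1.00 (adjusted p = 0.0896 for both), so that all 3 pointed the same way without passing the test.

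Upstream in WT, *Il10ra* was at 7.13 and 7.27 in WT(LPS + IL-10), against 7.45 and 7.49 in WT(LPS), a log2 fold change of -0.27 (adjusted p = 0.539). *Il10rb* was at 9.91 and 10.78 in WT(LPS + IL-10), against 9.90 and 9.93 in WT(LPS), and the log2 fold change of 0.43 (adjusted p = 0.608) was -0.00363 without WT(LPS + IL-10) replicate 2. *Tyk2* was at 7.86 and 8.20 in WT(LPS + IL-10) and 7.72 and 8.02 in WT(LPS), with a log2 fold change of 0.17 (95% interval -0.20 to 0.53). *Jak1* overlapped between the groups, at 9.86 and 9.73 in WT(LPS + IL-10) and 9.82 and 9.92 in WT(LPS), with a log2 fold change of -0.08 (95% interval -0.34 to 0.19). Without WT donor 1 the log2 fold changes were -0.21 for *Il10ra*, 0.86 for *Il10rb*, 0.19 for *Tyk2* and -0.19 for *Jak1*, and 0.16 for *Bcl3*.

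**Figure D2:**
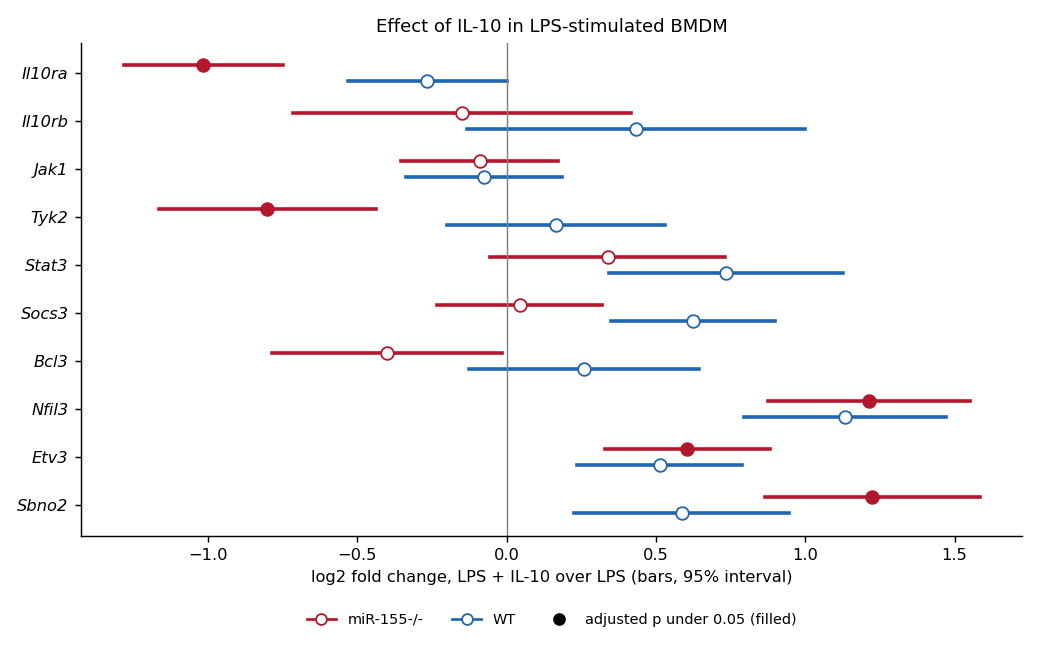
Log2 fold change of LPS + IL-10 over LPS (x axis) for the 10 genes (y axis) in miR-155-/- and WT BMDM, with 95% intervals from limma; filled points had an adjusted p under 0.05. The 5 filled points are all in miR-155-/-, *Il10ra* and *Tyk2* left of 0 and *Nfil3*, *Etv3* and *Sbno2* right of it.

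A call in miR-155-/- and none in WT does not show that the genotypes differ, so the difference of the IL-10 effects was tested itself. Genotype and sex cannot be told apart in this test either. None of the 10 genes passed, against 0.0333% of all probe sets, and none was selected, against 1.76%. The difference is signed, so that a value below 0 can stand for a stronger fall with IL-10 in miR-155-/-, as in *Il10ra*. At an unadjusted p under 0.05 in limma, 1 gene had a more positive log2 fold change with IL-10 in miR-155-/- than in WT, *Sbno2* (difference 0.64 on the log2 scale, adjusted p = 0.419). A more negative one was found in 4 genes, and the shares of all probe sets were 5.43% and 5.01%. The 4 genes were *Tyk2* (-0.97, adjusted p = 0.292), *Il10ra* (-0.75, adjusted p = 0.284), *Bcl3* (-0.66, adjusted p = 0.430) and *Socs3* (-0.58, adjusted p = 0.362). The other *Sbno2* probe sets were at 0.24, 0.07 and -0.48. Further probe sets were at -0.23 for *Tyk2*, -0.51 and -0.27 for *Il10ra*, and -0.81 and -0.47 for *Socs3*. For *Nfil3* the difference was 0.08 (95% interval -0.40 to 0.56), and for *Etv3* it was 0.09 (95% interval -0.30 to 0.48), and both lay below 0 without WT donor 1 (-0.04 and -0.06). For *Stat3* the difference was -0.40 (95% interval -0.95 to 0.16), and -0.72 without WT donor 1 (adjusted p = 0.225). For *Il10rb* it was -0.58 (95% interval -1.38 to 0.22), and for *Jak1* -0.01 (95% interval -0.38 to 0.36; 0.10 without WT donor 1). In 3 of the 10 (*Il10rb*, *Tyk2* and *Bcl3*) the array with IL-10 lay below that with LPS alone in both miR-155-/- donors and above it in both WT donors, against 6.54% of all probe sets. The median difference over the 10 was -0.49, against -0.000767 over all probe sets tested. Without WT donor 1 no gene passed either, and *Il10rb* was selected at -1.01 (adjusted p = 0.206). The 5 genes named first were then at -0.99 (*Tyk2*), -0.80 (*Il10ra*), -0.56 (*Bcl3*), -0.62 (*Socs3*) and 0.47 (*Sbno2*).

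**Figure D3:**
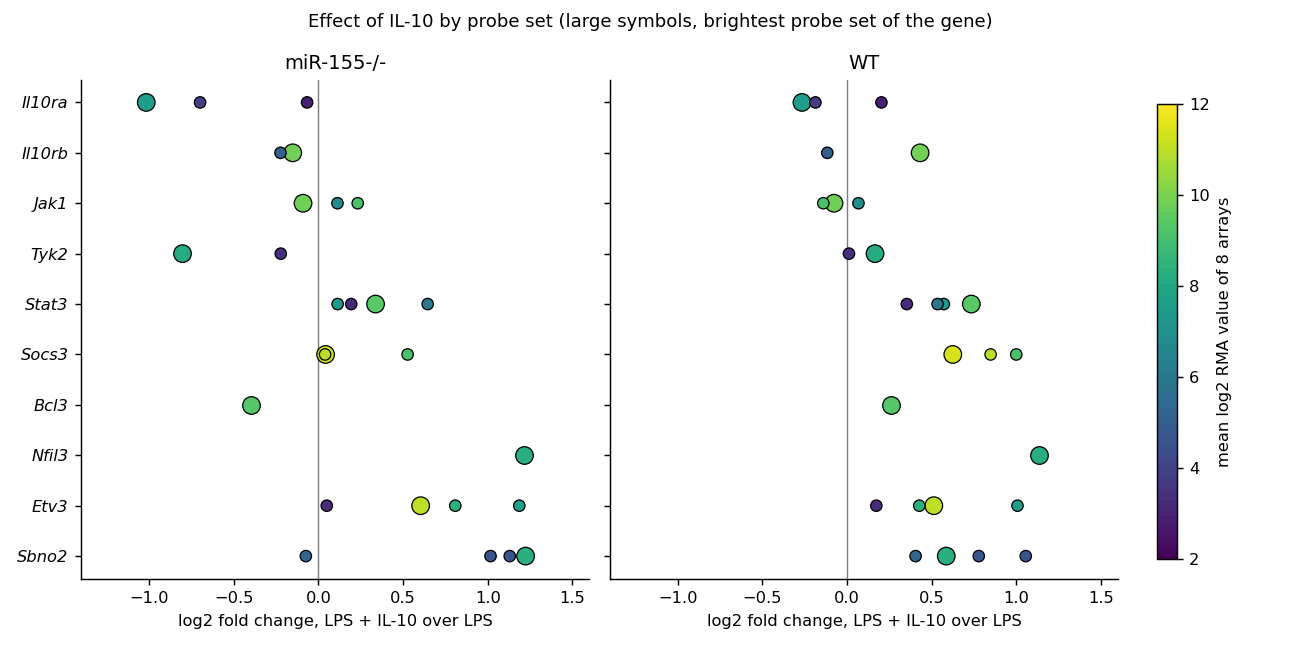
Log2 fold change of LPS + IL-10 over LPS (x axis) for all 27 probe sets of the 10 genes (y axis), in miR-155-/- (left) and WT (right); colour gives the mean log2 value over 8 arrays and large symbols mark the brightest probe set. All *Etv3* and *Stat3* probe sets lie right of 0 in both genotypes, while those of *Il10ra* in WT and of *Sbno2* in miR-155-/- fall on both sides.

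The second question was how the same line stood in miR-155-/- BMDM, from male donors, against WT BMDM, from female donors, under LPS alone. Under LPS alone *Il10ra* was higher in miR-155-/- BMDM, at 8.24 and 8.40 in miR-155-/-(LPS), against 7.45 and 7.49 in WT(LPS). The log2 fold change was 0.85 ± 0.13 (SE), a 1.81-fold difference (limma, adjusted p = 0.0323), and *Il10ra* was the 1 gene of the 10 that passed, against 1.46% of all probe sets (0.951% higher). It was lost when any 1 array was left out except those of WT(LPS + IL-10) (adjusted p = 0.0815 to 0.188), without WT donor 1 (0.83, adjusted p = 0.133) and with only the 4 arrays compared (0.123). Its dimmer probe sets were at 0.54 (adjusted p = 0.131) and 0.40 (adjusted p = 0.437). The selection rule took none of the 10 genes, against 2.52% of all probe sets, and at an unadjusted p under 0.05 there were 4 genes higher and 3 lower, against 7.8% and 5.99% of all probe sets. The 2 groups did not overlap for 8 of the 10, 4 higher and 4 lower, against 46.5% of all probe sets, and the median log2 fold change was -0.002, against 0.02 over all probe sets. This comparison shares the miR-155-/-(LPS) arrays with the IL-10 comparison in miR-155-/- BMDM and the WT(LPS) arrays with that in WT, so that the 3 are not independent.

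*Tyk2* was at 8.81 and 8.54 in miR-155-/-(LPS), against 7.72 and 8.02 in WT(LPS), a log2 fold change of 0.81 ± 0.18 (limma, adjusted p = 0.0901; 0.66 without WT donor 1). *Bcl3* was at 9.62 and 9.67 in miR-155-/-(LPS), against 8.88 and 9.35 in WT(LPS), a log2 fold change of 0.53 (adjusted p = 0.274; 0.29 without WT donor 1). *Socs3* was at 11.39 and 11.39 in miR-155-/-(LPS), against 10.90 and 11.03 in WT(LPS), a log2 fold change of 0.42 (adjusted p = 0.222; 0.35 without WT donor 1). In all 3 the miR-155-/- arrays lay above the WT arrays without passing the test. Further probe sets were at 0.31 for *Tyk2*, and at 0.59 and 0.41 for *Socs3*. The repressors *Sbno2*, *Nfil3* and *Etv3* lay on the other side, at 7.57 and 7.49, 7.39 and 7.60, and 10.59 and 10.56 in miR-155-/-(LPS), against 8.50 and 8.07, 8.04 and 7.83, and 10.96 and 10.82 in WT(LPS). Their log2 fold changes in limma were -0.76 (adjusted p = 0.104), -0.44 (adjusted p = 0.301) and -0.32 (adjusted p = 0.359). Without WT donor 1 they were -0.54, -0.33 and -0.25. The other *Sbno2* probe sets, all dim, were on both sides of 0, at -0.61, -0.44 and 0.26. Those of *Etv3* were at -0.75, -0.32 and, for the dimmest, 0.02. *Stat3* was at -0.02 (95% interval -0.47 to 0.44), *Jak1* at 0.01 (95% interval -0.29 to 0.31) and *Il10rb* at -0.19 (95% interval -0.84 to 0.45), and without WT donor 1 they were at 0.08, -0.04 and -0.21. With an intensity trend and robust hyperparameters *Tyk2*, *Socs3* and *Sbno2* passed beside *Il10ra*. The share of all probe sets that passed under that setting was not counted.

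With IL-10 added, none of the 10 genes passed between miR-155-/-(LPS + IL-10) and WT(LPS + IL-10), against 0.0711% of all probe sets, and none was selected, against 1.22%. The groups did not overlap for 6 of the 10, 1 higher and 5 lower, against 38.9% of all probe sets. The median log2 fold change was -0.16, against 0.03 over all probe sets. On the brightest probe sets 9 of the 10 estimates were below 0, *Jak1* among them at 0.00 after rounding. The share of all probe sets below 0 was not counted. Other probe sets lay above 0 for *Jak1* (0.32 and 0.16), *Tyk2* (0.07) and *Etv3* (0.06). The remaining ones of *Etv3*, and those of *Stat3*, *Socs3*, *Sbno2* and *Il10rb*, lay below 0. *Il10ra*, higher in miR-155-/- under LPS alone, was at 7.30 and 7.31 in miR-155-/-(LPS + IL-10) and 7.13 and 7.27 in WT(LPS + IL-10), a log2 fold change of 0.10 (95% interval -0.20 to 0.41; 0.03 without WT donor 1). At an unadjusted p under 0.05 in limma, *Il10rb* alone was lower, against 3.35% of all probe sets, at -0.78 (adjusted p = 0.481), with 9.43 and 9.71 in miR-155-/-(LPS + IL-10) against 9.91 and 10.78 in WT(LPS + IL-10). It was -0.34 without WT(LPS + IL-10) replicate 2, and the second *Il10rb* probe set was at -0.02. Without WT donor 1, which leaves that replicate alone in its group, *Il10rb* was selected at -1.21 (adjusted p = 0.0922). *Stat3* was at -0.41 (adjusted p = 0.588; -0.65 without WT donor 1), *Nfil3* at -0.36, *Etv3* at -0.23, *Socs3* and *Tyk2* at -0.16, *Bcl3* at -0.13, *Sbno2* at -0.12 and *Jak1* at 0.00. Without WT donor 1 these were at -0.38 (*Nfil3*), -0.32 (*Etv3*), -0.26 (*Socs3*), -0.33 (*Tyk2*), -0.26 (*Bcl3*), -0.07 (*Sbno2*) and 0.06 (*Jak1*).

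**Figure D4:**
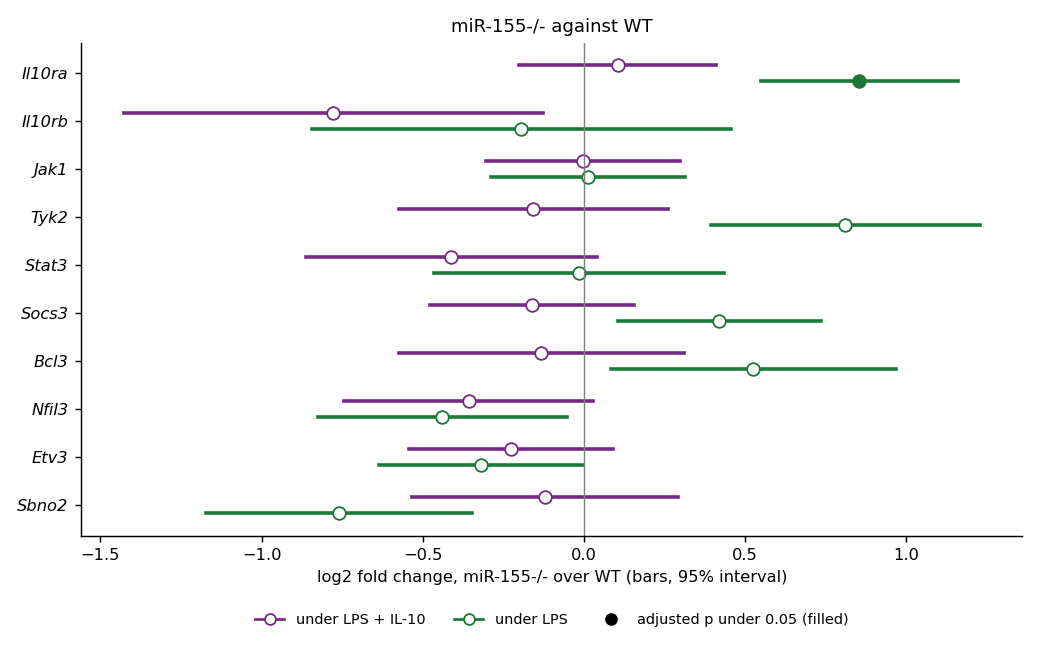
Log2 fold change of miR-155-/- over WT (x axis) for the 10 genes (y axis) under LPS + IL-10 and under LPS, with 95% intervals from limma; filled points had an adjusted p under 0.05. *Il10ra* under LPS, at 0.85, is the 1 filled point.

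The range of the 4 group means ran from 0.09 for *Jak1* to 1.57 for *Nfil3* and 1.35 for *Sbno2* on the log2 scale, with *Il10ra* at 1.12 and the other 6 genes at 0.53 to 0.83. For the 2 genes with the widest range, the 3 genes of most similar pattern were sought by Pearson's r over the 8 arrays, among 14065 probe sets with 1 gene and a mean log2 value of at least 6. For *Nfil3* these were *Il4ra* (r = 0.989), which encodes a chain of the IL-4 and IL-13 receptors, *Atp8a1* (0.984), which encodes a phospholipid flippase, and *Mtus1* (0.982). For *Sbno2* they were *Tm7sf2* (0.994), a sterol reductase gene, *Rab8b* (0.994), a small GTPase gene, and *Rpl22l1* (0.993). The arrays share donors and treatments, so that these r describe 8 arrays and no more.

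Around the 10 genes, 3 lists of the pathway were read in the same way, each gene on its brightest probe set. Of 16 measured genes of cytokine receptors and JAK-STAT partners, 1 passed higher and 2 lower with IL-10 in miR-155-/- BMDM, against 1.26% and 1.42% of all probe sets. None passed with IL-10 in WT, against 0.0311%, and 2 passed higher in miR-155-/- under LPS alone, against 0.951%. *Il4ra* was at 10.96 and 11.44 in miR-155-/-(LPS + IL-10), against 8.54 and 9.08 in miR-155-/-(LPS), a log2 fold change of 2.39 (limma, adjusted p = 0.00490). In WT it was at 11.45 and 11.41 with IL-10, against 9.88 and 9.31 with LPS alone (1.83, adjusted p = 0.0726), the largest WT change in the list. *Jak2*, a kinase of the interferon-gamma receptor among others, was at 10.76 and 10.85 in miR-155-/-(LPS + IL-10), against 11.70 and 11.63 in miR-155-/-(LPS) (-0.86, adjusted p = 0.0355). The miR-155-/-(LPS) arrays of *Jak2* were also above those of WT(LPS), at 10.26 and 10.54 (1.27, adjusted p = 0.0231). *Stat2*, which carries type I interferon signals, fell with IL-10 in miR-155-/- by 1.10 on the log2 scale (adjusted p = 0.0130) and under LPS alone was higher in miR-155-/- than in WT by the same 1.10 (adjusted p = 0.0297). For *Jak2* and *Stat2*, as for *Il10ra* and *Tyk2*, the highest 2 of the 8 arrays were those of miR-155-/-(LPS).

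Of 22 STAT3 targets and IL-10 effectors, none passed in any of the 5 comparisons by limma. At an unadjusted p under 0.05, 4 were higher and 3 lower with IL-10 in miR-155-/-, against 8.87% and 8.4% of all probe sets, and 3 higher and 5 lower in WT, against 4.69% and 4.58%, with medians of 0.10 and 0.14. The largest WT change was in *Marco*, a scavenger receptor gene, at -1.16 (adjusted p = 0.313), beside -1.10 in miR-155-/- (adjusted p = 0.114). Of 16 LPS-induced genes that IL-10 is known to repress, 8 passed lower with IL-10 in miR-155-/- BMDM, against 1.42% of all probe sets. None passed in WT, against 0.0311%, and the medians were -1.0 and -0.23. At an unadjusted p under 0.05 in limma, 12 were lower and 1 higher in miR-155-/-, against 8.4% and 8.87%. In WT 4 were lower and 2 higher, against 4.58% and 4.69%. The cytokine genes *Il6*, *Il1a*, *Tnf* and *Il12b* fell by 5.54, 3.29, 1.04 and 0.97 on the log2 scale in miR-155-/- (adjusted p = 0.0257, 0.00490, 0.0267 and 0.0430). The chemokine gene *Cxcl10* was at -3.53 there (adjusted p = 0.00251) and at -2.35 in WT (adjusted p = 0.0604), the largest WT change of the list. *Ptgs2*, which makes prostaglandin precursors, and the costimulatory genes *Cd40* and *Cd86* were at -1.18, -1.41 and -1.41 in miR-155-/- (adjusted p = 0.0423, 0.0129 and 0.0131). Between the genotypes under LPS alone 6 of the 16 passed higher in miR-155-/-, against 0.951% of all probe sets, and the median over the list was 1.19. These were *Cxcl10* by 3.39, *Il1a* by 3.08, *Cd40* by 1.75, *Ptgs2* by 1.50, *Il12b* by 1.33 and *Cd86* by 1.31 (limma, adjusted p between 0.00607 and 0.0421). Under LPS + IL-10 none of the 16 passed between genotypes, with 7 higher at an unadjusted p under 0.05 (5.59% of all probe sets), and none passed in the difference of the IL-10 effects, with 10 lower at an unadjusted p under 0.05 (5.01% of all probe sets).

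**Figure D5:**
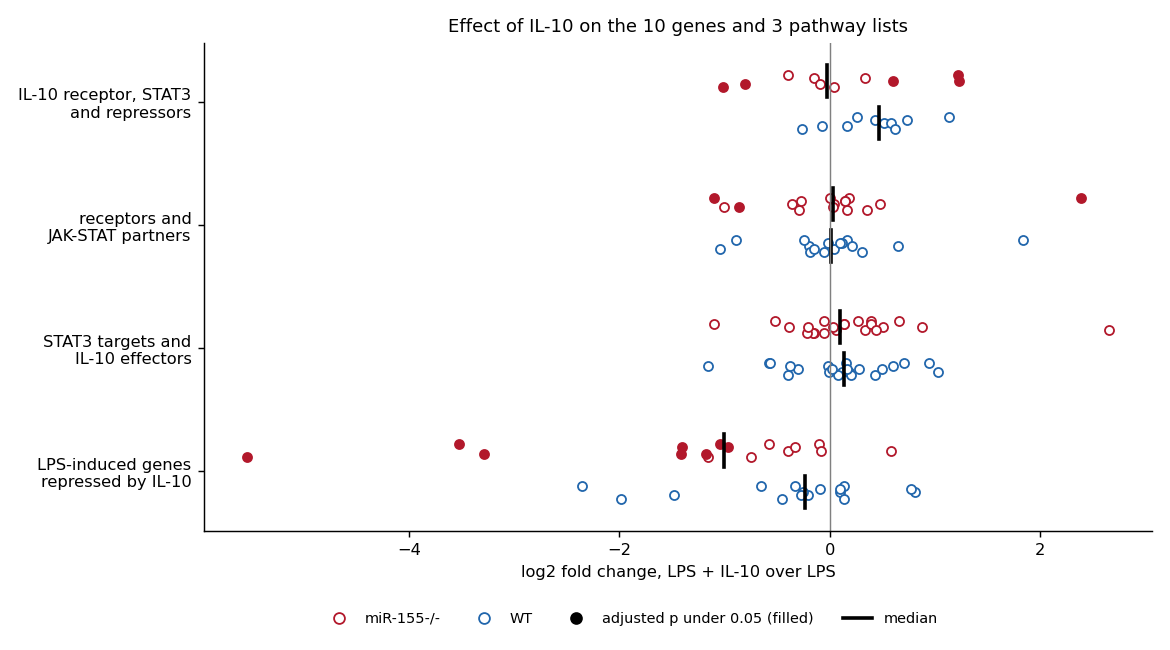
Log2 fold change of LPS + IL-10 over LPS (x axis) in miR-155-/- and WT BMDM for the 10 genes and the 3 lists around them (y axis), 1 point a gene, with a bar at the median; filled points had an adjusted p under 0.05. The LPS-induced list has its median at -1.0 in miR-155-/- and -0.23 in WT, and the 2 other lists have medians near 0.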

How the data were processed

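Per the labels and the study's methods, the authors amplified total RNA with NuGEN Ovation kits, hybridised it to Affymetrix mouse genome arrays and deposited log2 intensities made by RMA in affy (background correction, quantile normalization, 1 value per probe set). Tool versions were not given in the sources used here.

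All 8 arrays were used as deposited. Of 45101 probe sets, 34958 had 1 symbol in the array annotation, 932 several and 9211 none, and 34754 of the first matched RefSeq by Entrez ID. Without 64 controls and 23 sex-linked probe sets (*Xist* and Y-linked genes), 45014 remained. They were fitted by limma 3.58.1 (R 4.3.3) with 4 group means, the donor as a random block (duplicateCorrelation, correlation 0.24) and Benjamini-Hochberg adjustment. LPS and LPS + IL-10 arrays of 1 genotype and replicate number come from 1 donor by the labels, and their deviations from the group means correlated at r = 0.754 (WT) and 0.230 (miR-155-/-). With 2 donors a genotype the number of arrays limits the precision. The fit was run on simulated data with known changes in WT(LPS + IL-10) only and no outlying donor, which does not test the calls above.

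The rule for naming genes took all 10 genes, and of each list the genes that passed in any comparison and the largest WT IL-10 change, and for the 2 genes of widest range the 3 most correlated genes. The 10 genes, the lists and the alternatives were chosen with earlier results of these data known. The alternatives changed the donor block, the arrays fitted, the filter, the variance model, the normalization, the probe sets of a gene and the sex-linked filter. Python 3.11.15 with matplotlib 3.10.9 drew the plots.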

Additional observations from a re-analysis of the deposited data

Results flagged for a closer look

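In 3 of the 10 genes the array with IL-10 lay below the array with LPS alone in both miR-155-/- donors and above it in both WT donors, a pattern of 6.54% of all probe sets. The difference of the IL-10 effects did not pass the limma test in any of them. For *Tyk2* the difference was -0.97 (adjusted p = 0.292), with -0.84 and -0.76 in the miR-155-/- donors and 0.14 and 0.19 in the WT donors. For *Bcl3* it was -0.66 (adjusted p = 0.430), with -0.50 and -0.30 in the miR-155-/- donors and 0.36 and 0.16 in the WT donors. For *Il10rb* it was -0.58 (adjusted p = 0.583), with -0.27 and -0.03 in the miR-155-/- donors and 0.01 and 0.86 in the WT donors, so that 2 of its 4 donor differences were close to 0, and its second probe set was at -0.36 in WT donor 1. The second, dim *Tyk2* probe set did not have the pattern, at -0.06 and -0.39 in the miR-155-/- donors and 0.25 and -0.23 in the WT donors.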

How the results depend on the processing

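The number of the 10 genes that passed or were selected changed under these alternatives. Shares over all probe sets were counted for the main fit only, so that the counts below have no background. For IL-10 in miR-155-/- BMDM, where 5 passed, 3 did without a donor block, 3 with the replicate block (replicate number fixed, which pairs the arrays of a donor but also joins miR-155-/- and WT donors of the same number, which are different animals), 4 with the donor as a fixed block and 3 with the mean over probe sets, all 3 of the last being higher, and selected genes were then 1 in place of 3, and 2 after a second quantile normalization. In miR-155-/-(LPS) against WT(LPS), where 1 passed, 3 did with only probe sets of mean log2 value of at least 6, 4 with an intensity trend, and 0 with the mean over probe sets, only the arrays compared, or no WT donor 1. For IL-10 in WT, where 0 passed, 3 did with the mean of at least 6 and 3 with the intensity trend. Without WT donor 1, 2 genes were selected for IL-10 in WT (*Nfil3* and *Stat3*), 1 under LPS + IL-10 between genotypes and 1 for the difference of the IL-10 effects (both *Il10rb*). With each array left out in turn, 0 to 3 passed and 2 to 3 were selected for IL-10 in miR-155-/-, 0 to 1 passed between genotypes under LPS, and 0 to 1 and 0 to 2 were selected under LPS + IL-10 and for the difference of the IL-10 effects. An array left alone in its group is assumed to vary like the others, and 3 small fits took the donor correlation of the fit to all arrays. Of 50 gene and comparison pairs, 9 changed sign under some alternative, and 0 of the 24 with an unadjusted p under 0.05 did.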
